A study of Mus musculus with 18 samples.

Results

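Transcripts of 46 extracellular matrix genes were examined in mouse retinal pigment epithelium (RPE), the pigmented cell layer between the photoreceptors and the choroid. The genes encode collagens, laminins, nidogens, heparan sulfate proteoglycans, elastic fibre proteins, small leucine-rich proteoglycans, adhesive and matricellular proteins, and the proteases and inhibitors that act on them. They were chosen by name, and all 46 were found among the 55333 genes of one deposited table and the 55421 genes of the other, and all 46 passed the filter on low values in both. The RPE rests on Bruch's membrane, a sheet built from the basement membranes of the RPE and of the choroidal capillaries, with collagen and elastic layers between them. Type IV collagen and laminin networks, bridged by nidogen and perlecan, form the basement membranes. Fibrillar collagens give tensile strength, and elastin deposited on fibrillin gives recoil. TIMP3 and HTRA1 are known from inherited and age-related macular disease in humans.

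The study sampled RPE without treatment on postnatal day 25, 1 h after light onset, from 3 mutant genotypes and 2 wild-type strains. Mertk-/-V2Tyro3-/-V2 and Tyro3-/-V1 mice were set against C57BL/6 mice, and Itgb5-/- mice against WT129 mice. Mertk and Tyro3 encode related receptor tyrosine kinases, and Itgb5 encodes the beta chain of an integrin. MERTK and this integrin act in the uptake of shed outer segments. There were 3 biological replicates of each group and 6 of C57BL/6. The labels do not explain the suffixes V1 and V2, and do not say whether animals were pooled. Sample names of all Mertk-/-V2Tyro3-/-V2 and Tyro3-/-V1 libraries and of C57BL/6 replicates 1 to 3 carry the mark 23, and those of C57BL/6 replicates 4 to 6 do not.

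The libraries held 14135502 to 30401422 reads. Tyro3 was at 1433 to 1904 normalized counts in libraries carrying the label Mertk-/-V2Tyro3-/-V2, and at 1183 to 1423 in Tyro3-/-V1, against 2765 to 4161 in C57BL/6. Mertk was not lower in the libraries labelled Mertk-/-V2Tyro3-/-V2, at 2894 to 4113 against 2638 to 3924 in C57BL/6, so its total gave no check of that label. Itgb5 was at 1139 to 1254 in Itgb5-/-, against 3001 to 4171 in WT129. The RPE marker Rpe65, the retinoid isomerase, stood at 25232 or more in every library, and Best1, a channel of the RPE, at only 9.74 to 45.9, while the summed counts of 11 rod markers (35626 to 446764), 10 lens markers (8324 to 449984) and 10 ocular surface epithelium markers (54877 to 453706) show transcripts of other eye tissues in the libraries. In such bulk RNA, fewer cells of a type and less RNA per cell cannot be told apart.

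Sequences upstream of 3 genes are shown first because, of the 46, these genes had the largest excess in a single library over the others of its table. Col4a1 and Col4a2, the chains of the common type IV collagen trimer, lie head to head on chromosome 8, with annotated starts 21 bases apart. In the RefSeq promoter windows of GRCm38.p6, 250 bases before and 50 after each start, the windows of the pair share 78 bases at chr8:11312777-11312854, with a GC content of 73.1%. These are in capitals in the first 2 sequences, on opposite strands. The Col4a1 window is chr8:11312777-11313076 on the minus strand and the Col4a2 window chr8:11312555-11312854 on the plus strand.
Col4a1: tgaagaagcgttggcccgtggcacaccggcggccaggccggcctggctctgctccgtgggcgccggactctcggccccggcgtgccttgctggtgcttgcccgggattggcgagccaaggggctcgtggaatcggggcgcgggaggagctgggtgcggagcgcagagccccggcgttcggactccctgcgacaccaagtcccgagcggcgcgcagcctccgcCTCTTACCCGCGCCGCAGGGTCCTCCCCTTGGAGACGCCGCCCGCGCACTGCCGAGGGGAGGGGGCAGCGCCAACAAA
Col4a2: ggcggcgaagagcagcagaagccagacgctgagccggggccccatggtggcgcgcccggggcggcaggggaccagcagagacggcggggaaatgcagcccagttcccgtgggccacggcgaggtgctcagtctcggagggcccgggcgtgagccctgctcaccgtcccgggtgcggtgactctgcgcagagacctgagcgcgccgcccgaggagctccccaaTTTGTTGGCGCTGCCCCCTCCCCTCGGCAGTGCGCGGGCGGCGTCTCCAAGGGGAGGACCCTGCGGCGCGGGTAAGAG
The window of Nid1, which encodes the protein that links laminin to type IV collagen, is chr13:13437352-13437651 on the plus strand, and its capitals mark matches to a CCAAT box (read as ATTGG) and a GC box (GGGCGG).
Nid1: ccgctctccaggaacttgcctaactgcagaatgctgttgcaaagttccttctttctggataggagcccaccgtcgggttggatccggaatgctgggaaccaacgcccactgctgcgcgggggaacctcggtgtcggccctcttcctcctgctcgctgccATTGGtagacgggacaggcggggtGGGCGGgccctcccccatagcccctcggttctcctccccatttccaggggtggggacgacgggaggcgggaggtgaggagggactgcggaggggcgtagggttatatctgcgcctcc
Of the 46 genes, 33 had such a window. Read on both strands, GGGCGG occurred in 25 of the 33 (75.8%), against 38.2% of all 27025 genes in the promoter table and 49.2% of its 17492 protein-coding genes. CCAAT occurred in 13 (39.4%, against 41.1% of all genes), and TATAAA in Col3a1 and Postn alone (6.06%, against 15.7%). These are matches of letters and not binding sites.

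The matrix transcripts spanned a wide range of levels, and the same 4 genes led in every group. Levels are given as CPM divided by the kilobases of exon, that is per length and depth. Col8a2, a short-chain collagen of hexagonal lattices, averaged 312 ± 71.7 in Mertk-/-V2Tyro3-/-V2, 429 ± 64 in Tyro3-/-V1 and 395 ± 98.9 in C57BL/6, and 289 ± 15.5 in Itgb5-/- and 262 ± 68.7 in WT129 (SD, n = 3, and 6 for C57BL/6). Sparc, a collagen-binding matricellular protein, averaged 472 ± 69.1 in Mertk-/-V2Tyro3-/-V2, 394 ± 28.5 in Tyro3-/-V1 and 378 ± 55.9 in C57BL/6, and 210 ± 48.4 in Itgb5-/- and 268 ± 65.7 in WT129. Timp3, the matrix-bound metalloprotease inhibitor, averaged 290 ± 56.2 in Mertk-/-V2Tyro3-/-V2, 394 ± 73.9 in Tyro3-/-V1 and 341 ± 38.2 in C57BL/6. It averaged 642 ± 25.3 in Itgb5-/- and 574 ± 40 in WT129. These genes filled the first 3 ranks of all 5 groups in varying order. In C57BL/6 their means lay within the SD of Col8a2. Col8a1, the partner chain of Col8a2, had rank 4 in every group. In the table of Itgb5-/- and WT129, normalized apart from the other, Timp3 was the highest of the 46, and the tables were not tested against each other.

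The 5 most abundant genes held 53.5% of the summed level in Mertk-/-V2Tyro3-/-V2, 60.5% in Tyro3-/-V1 and 59.7% in C57BL/6, and 67.4% in Itgb5-/- and 62% in WT129. The 5 fibrillar collagen genes together held 3.31% to 5.9%. At the low end stood Lama4, a laminin alpha chain of vessels, at 0.827 ± 0.103 in Mertk-/-V2Tyro3-/-V2, 0.991 ± 0.255 in Tyro3-/-V1 and 0.731 ± 0.119 in C57BL/6. Lama2, the laminin alpha chain of muscle and nerve, was at 1.29 to 2.01 over the 5 groups, and Col15a1, which encodes a collagen of the basement membrane zone, was at 1.22 to 2.03. Of the type IV chains, Col4a3, Col4a4 and Col4a5, which form the alpha3-alpha4-alpha5 trimer, were higher per length than Col4a1 and Col4a2 in C57BL/6, at 31.5, 37.7 and 32.5 against 18.6 and 19.4. Fbln1 and Fn1 stood at different levels in the 2 tables. Fbln1, a fibulin of elastic fibres and basement membranes, was at 114, 67.1 and 96.8 in Mertk-/-V2Tyro3-/-V2, Tyro3-/-V1 and C57BL/6, and at 18.2 in Itgb5-/- and 33.4 in WT129. Fn1, fibronectin, was at 6.12, 6.2 and 5.54 in the same first 3 groups, and at 22.5 in Itgb5-/- and 15.5 in WT129. These gaps lie across separately normalized tables and strains and have no test.

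**Figure D1:**
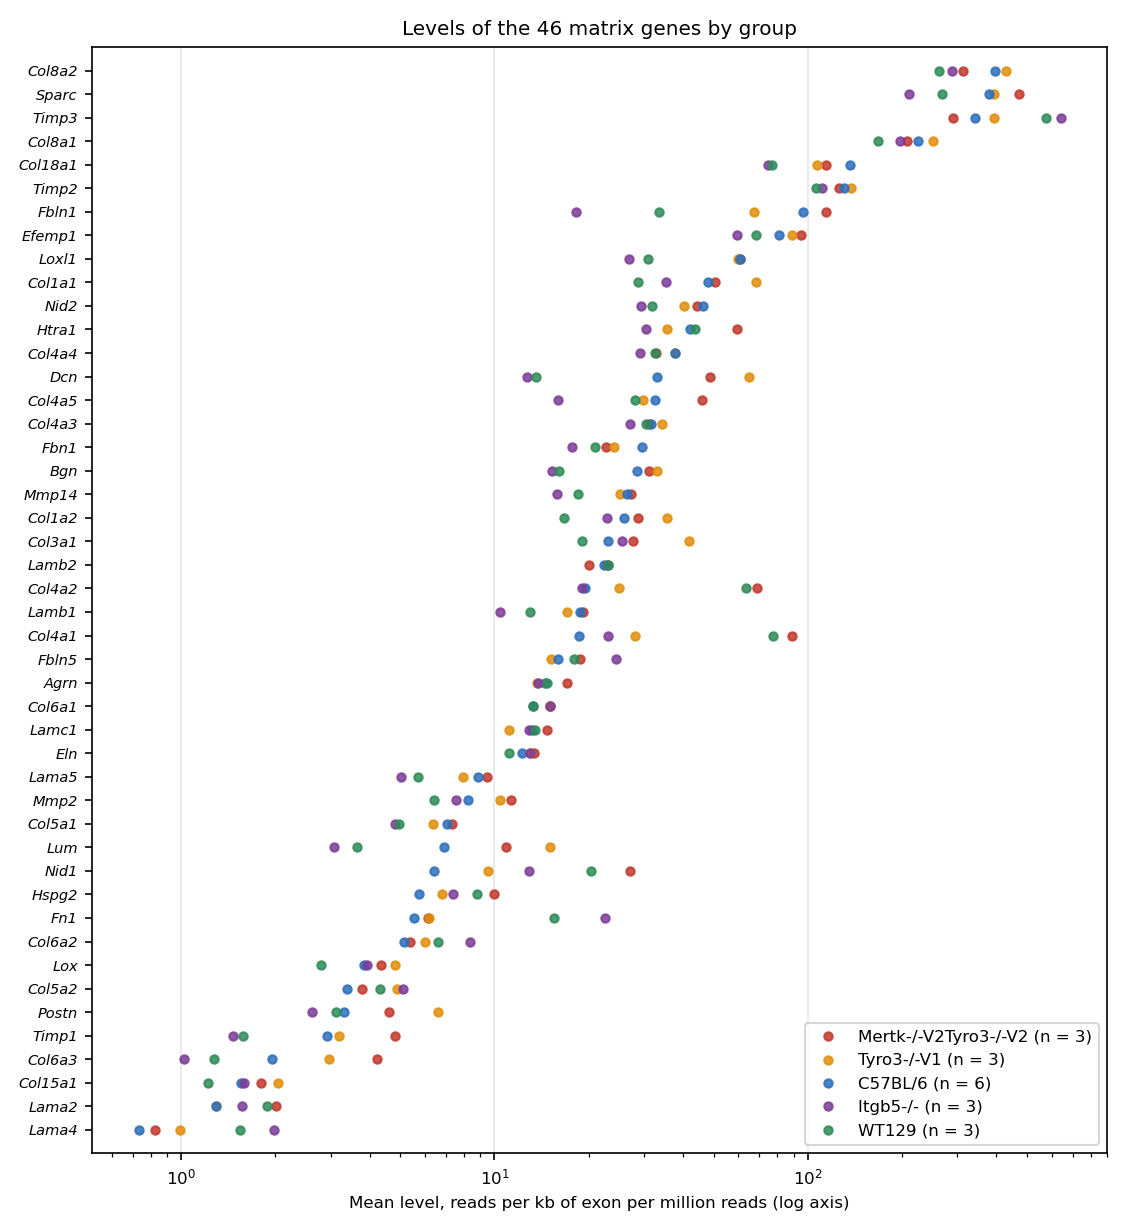
Mean level of each of the 46 genes per kilobase of exon and per unit of depth (CPM over kilobases, log axis), 1 point per group. Col8a2, Sparc and Timp3 stand at the top in all 5 groups and Lama4, Lama2, Col15a1 and Col6a3 near the bottom, while Col4a1 and Col4a2 stand apart in Mertk-/-V2Tyro3-/-V2 and WT129.

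For the question how these matrix genes stood in Mertk-/-V2Tyro3-/-V2, no gene of the 46 passed limma's threshold (adjusted p under 0.05), against 0.523% of the 19711 genes tested. edgeR also called 0, against 0.614% of all genes. DESeq2 called 8, where it called 8.75% of all genes. Of these, 7 were higher (15.2%, against 5.71% of all genes) and 1 lower (2.17%, against 3.04%). At an unadjusted p under 0.05, limma gave 16 of 46 (34.8%) where it gave 21.9% of all genes. There were 13 higher (28.3%, against 13.2% of all genes) and 3 lower (6.52%, against 8.74%). The median log2 fold change of the 46 genes was 0.22, against 0.01 over all genes, and 34 of 46 were positive, against 50.8% of all genes. The mutant range was wholly above the C57BL/6 range for 7 genes (15.2%, against 3.47% of all genes) and wholly below it for 2 (4.35%, against 2.36%). The fit has a term for the mark 23, so its fold changes rest on the 3 marked C57BL/6 libraries, while overlap and exact tests use all 6. Without that term the median was 0.12.

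**Figure D2:**
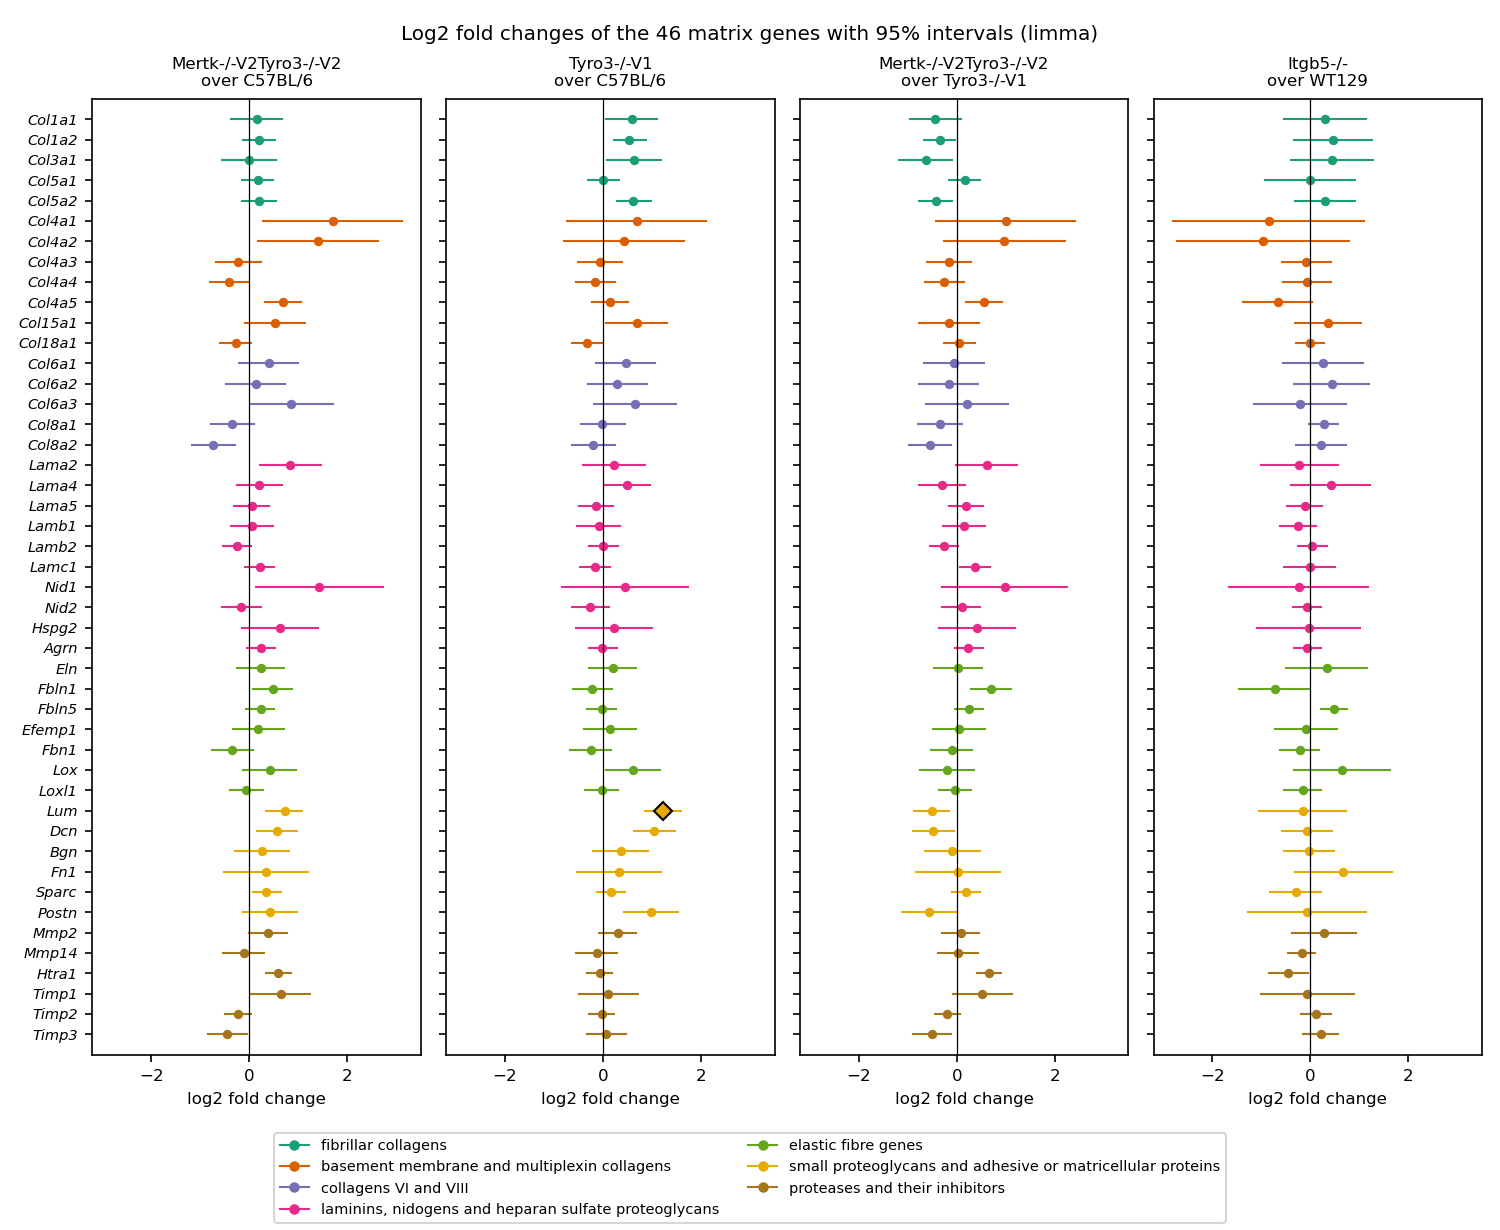
Log2 fold changes (limma) of the 46 genes in 4 comparisons, with 95% intervals as lines and colours for the 7 roles, the mutant over its control or, in the third panel, Mertk-/-V2Tyro3-/-V2 over Tyro3-/-V1. The diamond marks Lum in Tyro3-/-V1, the one gene past the threshold in limma and edgeR. Intervals are widest for Col4a1, Col4a2 and Nid1.

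Among the basement membrane collagens, Col4a1 (chromosome 8, 11198423 to 11312826, minus strand) was at 4747, 6150 and 37942 normalized counts in Mertk-/-V2Tyro3-/-V2. In C57BL/6 it was at 2787 to 4716, with a median of 3441. All 3 mutant libraries were above all controls, and replicate 3 stood far above the other 2. Limma put the log2 fold change at 1.7 ± 0.64 (SE, adjusted p = 0.183), and at 0.76 without replicate 3 (adjusted p = 0.356). Col4a2 (chromosome 8, 11312805 to 11449287, plus strand) followed the same order, with 4056, 5292 and 24327 against 2625 to 3917 in C57BL/6 (median 3343). Limma gave 1.4 ± 0.55 on the log2 scale (adjusted p = 0.193), and 0.60 without replicate 3 (adjusted p = 0.428). These annotated genes overlap at their starts on opposite strands, and the sources used here do not say whether counting used strand.

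The chains of the other trimer had log2 fold changes of unlike sign. Col4a5 was at 6543, 7720 and 8919 in Mertk-/-V2Tyro3-/-V2, against 3673 to 6755 in C57BL/6 (median 5667). The ranges overlap, because the unmarked C57BL/6 replicates 5 and 6 reached 6707 and 6755. Limma placed it at a log2 difference of 0.69 ± 0.17 (adjusted p = 0.0883), and at 0.47 without the term for the mark (adjusted p = 0.378). Col4a3 and Col4a4, its partner chains, had log2 fold changes of −0.22 (adjusted p = 0.511) and −0.42 (adjusted p = 0.215). Col18a1, the collagen that carries endostatin, was at 18711 to 20910 in Mertk-/-V2Tyro3-/-V2 and at 22953 to 27878 in C57BL/6. The groups do not overlap, but the log2 fold change of −0.28 had an adjusted p of 0.266. Col15a1 had 0.53 (adjusted p = 0.277).

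The proteins that bridge the networks split in the same way. Nid1 (chromosome 13, 13437551 to 13512269, plus strand) was at 1714, 1950 and 10147 in Mertk-/-V2Tyro3-/-V2, against 862 to 1524 in C57BL/6 (median 1156). The groups do not overlap, and replicate 3 was again far above its group. Limma gave a log2 difference of 1.43 ± 0.58 (adjusted p = 0.201), and 0.60 without replicate 3 (adjusted p = 0.483). Nid2, its paralogue, had −0.16 (adjusted p = 0.584). Hspg2, which encodes perlecan, was at 2337, 2454 and 5787, against 1907 to 2414 in C57BL/6 (log2 fold change 0.63, adjusted p = 0.294). Lama2 was at 624, 789 and 1043, against 348 to 709 in C57BL/6, where replicates 5 and 6 overlap with it (log2 fold change 0.84 ± 0.29, adjusted p = 0.154). The other laminin chains lay between −0.25 for Lamb2 and 0.21 for Lamc1, and Agrn, agrin, had 0.24. Summed counts of 15 endothelial markers, cells that also make basement membrane, were 12335, 13373 and 11212 in Mertk-/-V2Tyro3-/-V2, against 6024 to 9242 in marked and 10027 to 15697 in unmarked C57BL/6. Their part in the basement membrane values was not tested.

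Collagens VI and VIII differed in sign. Col6a3, a chain of microfibrillar collagen VI, was at 668, 814 and 2256 in Mertk-/-V2Tyro3-/-V2 and at 473 to 690 in C57BL/6. Its log2 fold change of 0.86 ± 0.37 (limma adjusted p = 0.219) was 0.33 without replicate 3 (adjusted p = 0.528). Col8a2 was at 33425, 44587 and 27399 in Mertk-/-V2Tyro3-/-V2, and at 49022, 67342 and 57306 in marked and 40926, 30845 and 35135 in unmarked C57BL/6. The mutant libraries were below the marked controls and overlapped with the unmarked ones. With limma it stood at −0.74 ± 0.20 on the log2 scale (adjusted p = 0.102), and at −0.39 without the term for the mark (adjusted p = 0.612).

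All 6 small proteoglycan, adhesive and matricellular genes had positive log2 fold changes, between 0.27 and 0.72, and none passed with limma. Lum, lumican, a small proteoglycan that spaces collagen fibrils, was at 617, 720 and 670 in Mertk-/-V2Tyro3-/-V2, against 335 to 497 in C57BL/6 (median 449). All 3 mutant libraries were above all 6 controls (log2 fold change 0.72 ± 0.17, limma adjusted p = 0.0836). Dcn, decorin, which binds collagen fibrils and growth factors, was at 6867, 8291 and 6178, against 3686 to 5519 in C57BL/6, also without overlap (log2 fold change 0.57 ± 0.19, adjusted p = 0.145). Sparc was at 38179, 47094 and 48828, against 32761 to 42240 (log2 fold change 0.35, adjusted p = 0.175). The summed counts of 18 fibroblast and mural cell markers were 16519 to 22961 in Mertk-/-V2Tyro3-/-V2, and 11894 to 15846 in marked and 16258 to 18661 in unmarked C57BL/6, with Tcf21 and Twist2 under 10 in all of these libraries. Acta2 and Myh11 were the largest terms of this sum in each of these libraries. Pdgfra was at 695, 794 and 1604 in Mertk-/-V2Tyro3-/-V2, against 361 to 638 in C57BL/6, without overlap. Pdgfrb overlapped, at 623, 905 and 975 against 585 to 981, and Cspg4 was wholly below, at 471 to 512 against 671 to 930. The part of these cells in the differences of Lum and Dcn was not tested.

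Fibrillar collagens stayed close to the controls, with log2 fold changes between 0 for Col3a1 and 0.19 for Col1a2 and Col5a2. Among elastic fibre genes, Fbln1 was at 13735, 13070 and 10761 in Mertk-/-V2Tyro3-/-V2, inside the 6452 to 14192 of C57BL/6. It had 0.48 ± 0.18 (limma adjusted p = 0.183), but 0.24 without C57BL/6 replicate 2 and 0.23 without the term for the mark. Fbn1, fibrillin, had −0.35 ± 0.19 (adjusted p = 0.289). Fbn1 was at 6525 to 7082 in Mertk-/-V2Tyro3-/-V2 and at 7704 to 10714 in C57BL/6, without overlap. Eln, elastin, Lox and Loxl1, which encode crosslinking enzymes, Fbln5 and Efemp1 lay between −0.06 and 0.42.

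Of the proteases and inhibitors, Htra1, a secreted serine protease, came closest to the threshold. Htra1 (chromosome 7, 130936111 to 130985660, plus strand) was at 3930, 4057 and 4770 in Mertk-/-V2Tyro3-/-V2, against 2401 to 3733 in C57BL/6 (median 3141). All 3 mutant libraries were above all 6 controls, by a small gap to C57BL/6 replicate 6. It was 1.51-fold higher in the fit with the mark term, against marked C57BL/6 (0.59 ± 0.11 on the log2 scale, limma adjusted p = 0.0506). Htra1 averaged 2823 in marked and 3471 in unmarked C57BL/6. Over the settings tried its log2 fold change was 0.44 to 0.67. Its adjusted p ran between 0.00118 and 0.22 over the settings tried, and was under 0.05 in 4 of 23. Timp3 was at 56739, 72879 and 48073, against 61593 to 90920 in C57BL/6 with overlap (log2 fold change −0.45 ± 0.18, adjusted p = 0.193). Timp1 and Mmp2, another inhibitor and a gelatinase, had 0.64 (adjusted p = 0.214) and 0.38 (adjusted p = 0.227). Summed RPE markers, mostly Ttr and Rgr, were 406610 to 644637 in Mertk-/-V2Tyro3-/-V2 and 566394 to 944801 in C57BL/6. The median log2 fold change of the 14 was −0.45. Of them 8 had an unadjusted limma p under 0.05, and 1, Rpe65, fell past the threshold. Others were not lower. Tyrp1 was at 29447, 41094 and 23405 in Mertk-/-V2Tyro3-/-V2, against 19814 to 30388 in C57BL/6. Trpm1 was at 26184, 35321 and 21074, against 17490 to 28556, and Tyr, Mitf and Best1 also overlapped. The part of RPE RNA in the differences of Timp3 and Col8a2 was not tested.

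DESeq2 on the recovered reads called Col4a1, Col4a2, Col4a5, Nid1, Lama2, Lum and Htra1 higher and Col8a2 lower in Mertk-/-V2Tyro3-/-V2. When replicate 3 was left out, a setting added after seeing the data, Htra1 was the only one that DESeq2 still called, at 0.48 on the log2 scale (DESeq2 adjusted p = 0.0243).

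**Figure D3:**
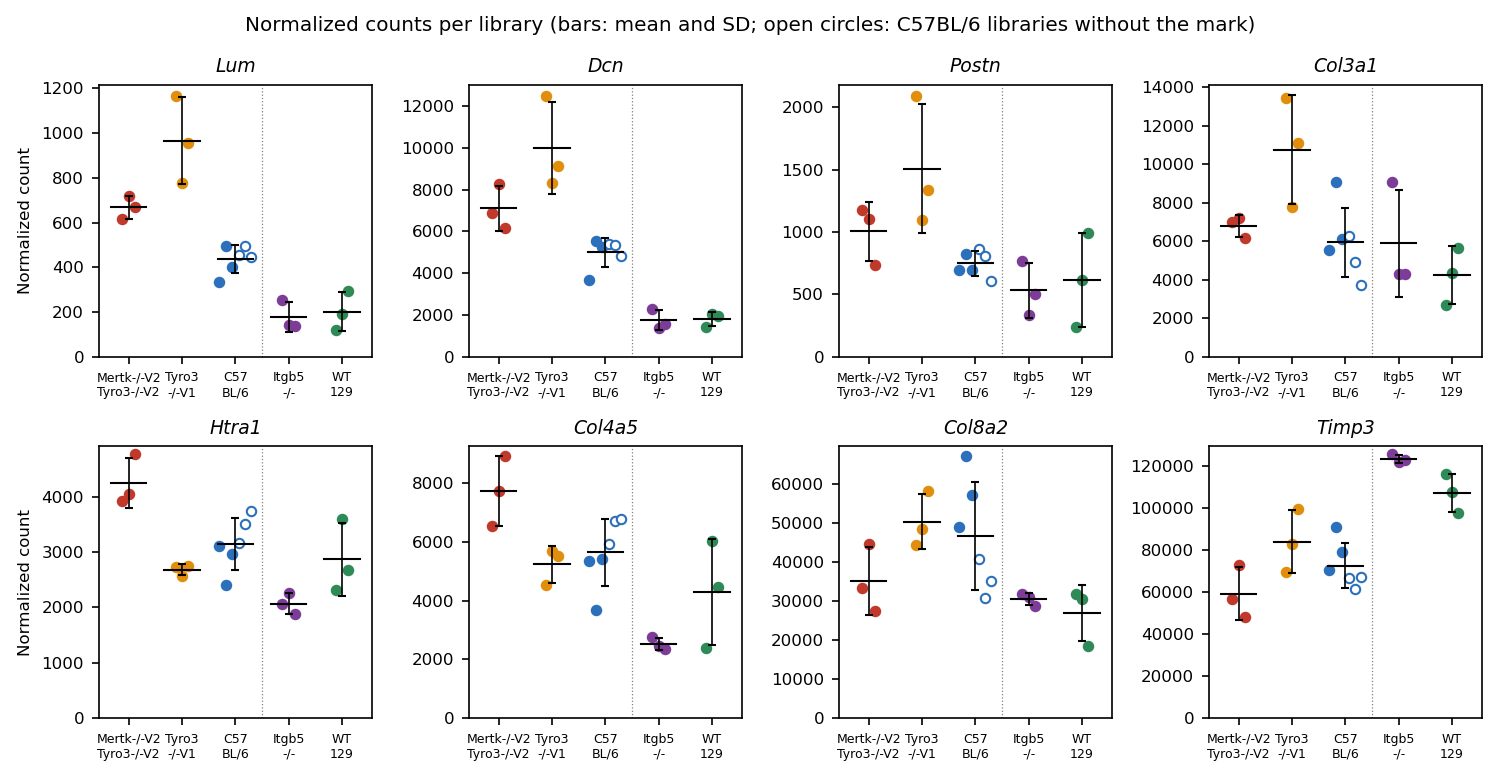
Normalized counts of 8 genes in each library by group, with bars for mean and SD and open circles for C57BL/6 libraries without the mark 23. Lum, Dcn and Htra1 lie above all 6 C57BL/6 libraries in Mertk-/-V2Tyro3-/-V2, Lum and Dcn higher still in Tyro3-/-V1, and for Col8a2 and Col4a5 the marked and unmarked C57BL/6 libraries separate.

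The high Col4a1, Col4a2 and Nid1 values sat in 1 library of each table, and one of these was a control. In Mertk-/-V2Tyro3-/-V2 replicate 3, Col4a1 was 9.55 times, Nid1 7.73 times and Col4a2 6.74 times the median of the other libraries of its table. In WT129 replicate 2, Col4a1 was at 32430 (8.28 times the median of the others), Col4a2 at 22490 (6.73 times) and Nid1 at 6339 (2.85 times). Hspg2 was 2.61 times the median of the others in Mertk-/-V2Tyro3-/-V2 replicate 3 and 2.42 times in WT129 replicate 2. Outside these 2 libraries Col4a1 was at 2787 to 7438 in the first table and at 2743 to 5451 in the second. Col4a3, which encodes a chain of the other trimer, was within the range of the other libraries of its table in Mertk-/-V2Tyro3-/-V2 replicate 3, at 8230. In WT129 replicate 2 it was at 9379, above the 5285 to 6684 of the other libraries. Col4a4 was also above all others there, at 10531 against 6160 to 7817, and Col4a5 was 2.45 times the median of the others. Col4a5 was highest in Mertk-/-V2Tyro3-/-V2 replicate 3 as well, at 8919.

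Transcripts of the lens were read beside these values. The 10 lens markers summed to 115148, 78897 and 369179 in Mertk-/-V2Tyro3-/-V2, against 8324 to 76445 in C57BL/6, without overlap, as for Col4a1, Col4a2 and Nid1. Foxe3, a transcription factor of the lens epithelium that was looked up after the values were seen, was at 481 in Mertk-/-V2Tyro3-/-V2 replicate 3 and at 359 in WT129 replicate 2, against at most 54.3 and 16.3 in the rest of their tables. Cryaa, the lens alpha-crystallin, was at 208463 in Mertk-/-V2Tyro3-/-V2 replicate 3, against 4376 to 57107 in the rest of its table, and at 129440 in WT129 replicate 2. Itgb5-/- replicate 2 had 332184 of Cryaa, the highest of all libraries, 12.3 of Foxe3 and 5451 of Col4a1. The part of lens RNA in the collagen values was not tested. Summed rod markers were 258401 in Mertk-/-V2Tyro3-/-V2 replicate 3 and 446764 in WT129 replicate 2, the first of them below C57BL/6 replicates 5 and 6 (350611 and 302993).

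**Figure D4:**
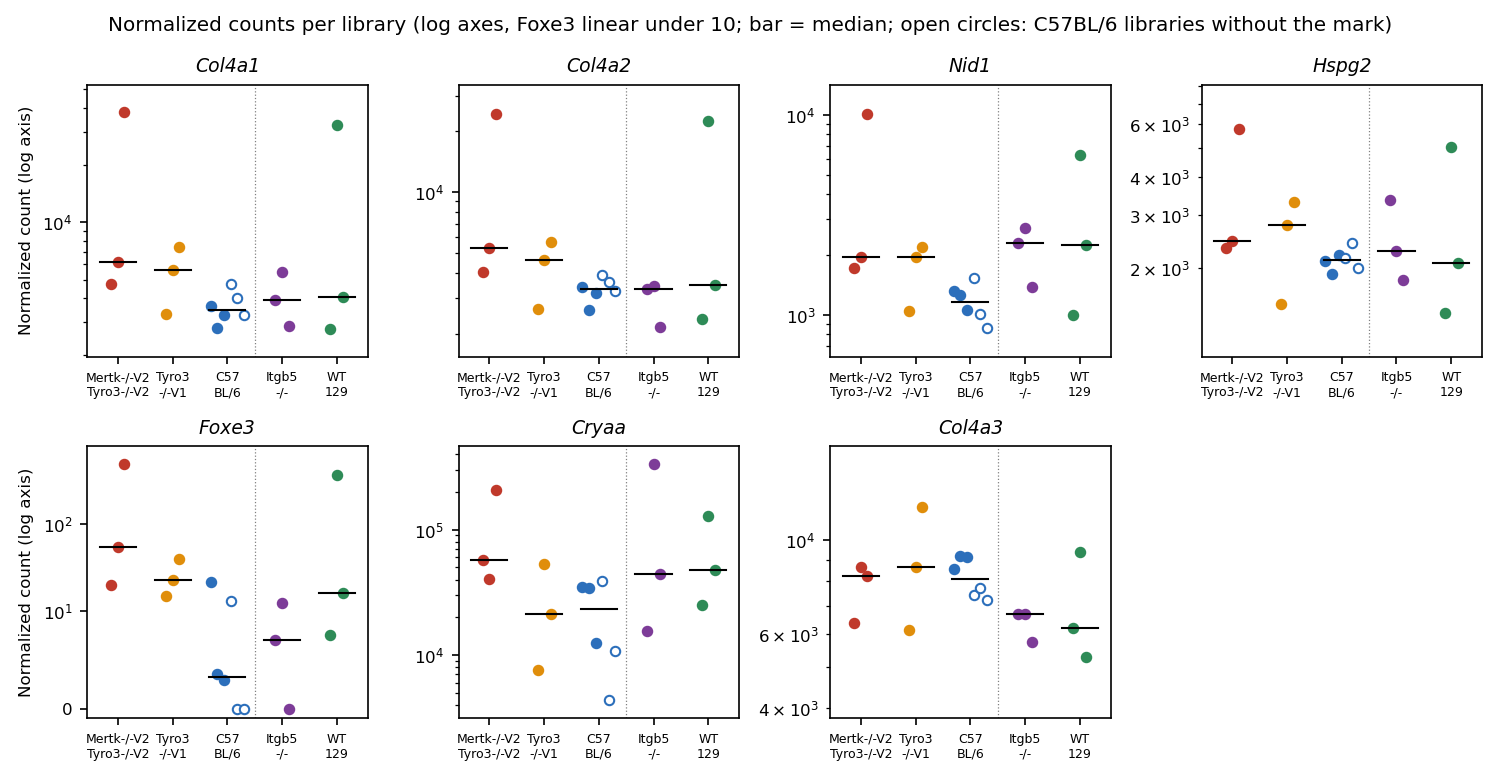
Normalized counts per library of 4 basement membrane genes, the lens genes Foxe3 and Cryaa, and Col4a3 (log axes, Foxe3 linear under 10, bar at the group median, open circles for C57BL/6 without the mark). Mertk-/-V2Tyro3-/-V2 replicate 3 and WT129 replicate 2 stand above the rest for Col4a1, Col4a2, Nid1, Hspg2 and Foxe3, and Cryaa is highest in an Itgb5-/- library.

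In Tyro3-/-V1, Lum was the only one of the 46 genes that passed (2.17%), and it rose with limma and with edgeR. Either tool called 0.0457% of all genes, and limma called 0.0304% higher. DESeq2 called Lum, Dcn and Postn higher (6.52%, against 0.467% of all genes). At an unadjusted p under 0.05, limma gave 11 of 46 (23.9%) where it gave 6.71% of all genes. There were 10 higher (21.7%, against 4.32%) and 1 lower (2.17%, against 2.38%), and 29 of 46 fold changes were positive (63%, against 49.7% of all genes). The median log2 fold change was 0.15, against 0 over all genes, and was 0.59 for the 5 fibrillar collagens and 0.67 for the 6 small proteoglycan, adhesive and matricellular genes. Tyro3-/-V1 lay wholly above C57BL/6 for 6 genes (13%, against 2.59% of all genes) and wholly below for 0 (against 1.46%). The controls are the same C57BL/6 libraries as in the comparison above.

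Lum (chromosome 10, 97565128 to 97572703, plus strand) was at 1164, 777 and 955 normalized counts in Tyro3-/-V1, against 335 to 497 in C57BL/6 (median 449). All 3 mutant libraries were above all 6 controls (exact two-sided permutation p = 0.0119, the smallest that 84 splits give). Lum was 2.34-fold higher (1.23 ± 0.17 on the log2 scale, limma adjusted p = 0.0358, edgeR adjusted p = 0.0354). Each of the 9 libraries of the 2 groups was left out in turn. The limma call was lost in 8 of these fits, at adjusted p of 0.0531 to 0.218, and kept without C57BL/6 replicate 2, while the log2 difference stayed between 1.08 and 1.37.

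Dcn, 47.0 kb away from Lum on the same strand (chromosome 10, 97479609 to 97518143), was at 12470, 8317 and 9134 in Tyro3-/-V1, against 3686 to 5519 in C57BL/6 (median 5314). The groups do not overlap, and replicate 1 is the highest, as it is for Lum. The log2 fold change stood at 1.05 ± 0.19 (limma adjusted p = 0.191). Postn, periostin, a matricellular protein of collagen-rich tissues, was at 2090, 1097 and 1337, against 608 to 866 in C57BL/6, with the same library on top (log2 fold change 0.98 ± 0.25, adjusted p = 0.384). Without Tyro3-/-V1 replicate 1 the log2 fold changes were 0.88 for Dcn (adjusted p = 0.136) and 0.72 for Postn (adjusted p = 0.348).

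The fibrillar collagens leaned the same way. Col5a2 was at 1064, 1214 and 1410 in Tyro3-/-V1, against 654 to 980 in C57BL/6 (log2 fold change 0.62 ± 0.16, limma adjusted p = 0.374). Col1a2 was at 9483, 11706 and 13265, against 6603 to 9441 (log2 fold change 0.54 ± 0.15, adjusted p = 0.45). Both lie above all controls, Col1a2 by a narrow gap. Col1a1 had 0.59, Col3a1 0.64 and Col5a1 0.01. Col6a3 was also above all controls, at 882, 844 and 1058 against 473 to 690 (log2 fold change 0.65, adjusted p = 0.835).

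Basement membrane genes spread widely in Tyro3-/-V1. Col4a1, at 3299, 5622 and 7438 against 2787 to 4716 in C57BL/6, had 0.69 (limma adjusted p = 0.95), and Nid1 0.45 (adjusted p = 0.966). Col15a1 had 0.69 (limma adjusted p = 0.692) and Lama4 0.50 (adjusted p = 0.718), and without the term for the mark Col15a1 had 0.38. Col18a1, at 16159, 18438 and 24211 against 22953 to 27878 in C57BL/6, had −0.33 (adjusted p = 0.73). Nid2 had −0.26. Of the elastic fibre genes, Lox had 0.62 (adjusted p = 0.685) and Fbn1 −0.25. Mmp2 had 0.30 and Mmp14, a membrane-bound collagenase, −0.13. Htra1 had −0.07, at 2562 to 2740 against 2401 to 3733 in C57BL/6.

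Vessel and connective tissue markers were read beside these genes in Tyro3-/-V1. Of 15 endothelial markers, 12 had an unadjusted limma p under 0.05, with a median log2 fold change of 0.86, and none passed after adjustment. Their summed counts were 7726, 16837 and 18270 in Tyro3-/-V1, 6024 to 9242 in marked C57BL/6 and 10027 to 15697 in unmarked C57BL/6. Fibroblast and mural cell markers summed to 14597, 18093 and 18438 in Tyro3-/-V1, against 11894 to 18661 in C57BL/6. Among them Dpt, dermatopontin, was at 899 in replicate 1 and at 284 and 484 in the others, against 119 to 481 in C57BL/6. Kera, keratocan of the corneal stroma, was at 131, 30.6 and 81.3, against 32.6 to 82.1. The other corneal stroma and sclera markers, Ptgds, Angptl7, Chad, Comp and Tnmd, were lowest in replicate 1 within Tyro3-/-V1. Of the fibroblast and mural cell markers, Pdgfra and Pdgfrb were also lowest there, while Twist1 and Twist2 were highest there. Summed striated muscle markers were 17700, 3974 and 14550, against 1593 to 15977. The part of these tissues in the values of Lum, Dcn and Postn was not tested.

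Set directly against Tyro3-/-V1, the libraries labelled Mertk-/-V2Tyro3-/-V2 gave 0 calls among the 46 genes with limma (0.137% of all genes) and with edgeR (0.178%). DESeq2 called Htra1 and Fbln1 higher (4.35%, against 2.23% of all genes). At an unadjusted p under 0.05, limma gave 12 of 46 (26.1%) where it gave 13.8% of all genes. There were 4 higher (8.7%, against 8.23%) and 8 lower (17.4%, against 5.55%), and 24 of 46 were positive, against 48.7% of all genes. Mertk-/-V2Tyro3-/-V2 lay wholly above Tyro3-/-V1 for 5 genes (10.9%, the same as for all genes) and wholly below for 5 (against 7.22%). The median was 0.02, and −0.18 without Tyro3-/-V1 replicate 1.

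Htra1 was at 3930, 4057 and 4770 in Mertk-/-V2Tyro3-/-V2 and at 2733, 2562 and 2740 in Tyro3-/-V1. The groups are clearly apart, by 1.58-fold (0.66 ± 0.11 on the log2 scale, limma adjusted p = 0.0601, DESeq2 adjusted p = 0.000261). Fbln1 was at 13735, 13070 and 10761, against 7979, 7264 and 7791 in Tyro3-/-V1, also apart (log2 fold change 0.70 ± 0.18, limma adjusted p = 0.19, DESeq2 adjusted p = 0.0218). Col4a5 had 0.56 ± 0.17 (limma adjusted p = 0.242) and Lamc1 0.37 ± 0.14 (adjusted p = 0.304), both without overlap. With 3 libraries against 3, an exact permutation test cannot go below p = 0.1.

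Lum, Dcn and 4 of the 5 fibrillar collagens had negative log2 fold changes in Mertk-/-V2Tyro3-/-V2 over Tyro3-/-V1, none past the threshold, and Col5a1 had 0.16. Lum was at −0.51 ± 0.17 (limma adjusted p = 0.264), Dcn −0.48 ± 0.19 (adjusted p = 0.318), Col3a1 −0.63 ± 0.25 (adjusted p = 0.318) and Col5a2 −0.43 ± 0.16 (adjusted p = 0.296). The higher Lum of Tyro3-/-V1 against C57BL/6 is therefore not shown to differ from that of Mertk-/-V2Tyro3-/-V2. Timp3 had −0.51 ± 0.18 (adjusted p = 0.286) and Col8a2 −0.54 ± 0.20 (adjusted p = 0.298), both with overlap. Col8a1 had −0.34, Lama2 0.61, Fbln5 0.26 and Col4a2 0.97. Without Mertk-/-V2Tyro3-/-V2 replicate 3, Col8a1 had −0.17 and Col4a2 0.17. Without Tyro3-/-V1 replicate 1, Lama2 had 0.30, Fbln5 0.11, Lamc1 0.20 and Dcn −0.30.

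In Itgb5-/- against WT129, none of the 46 genes passed with limma (0.0375% of 18653 genes) or edgeR (0.0268%). DESeq2 called Fbln5 higher (2.17%, against 0.434% of all genes). An unadjusted limma p under 0.05 was reached by 3 of 46 (6.52%), against 8.28% of all genes. Fbln5 was higher (2.17%, against 3.31%), and Fbln1 and Htra1 were lower (4.35%, against 4.96%). The median log2 fold change was −0.05, against 0.04 over all genes, and 18 of 46 were positive, against 56% of all genes. Itgb5-/- lay wholly above WT129 for 3 genes (6.52%, against 7.67% of all genes) and wholly below for 2 (4.35%, against 7.68%).

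Fbln5, a fibulin needed for elastic fibre assembly that binds integrins, was at 4489, 3711 and 3745 in Itgb5-/-, against 2956, 2775 and 2821 in WT129. The groups are apart, by 1.39-fold (0.48 ± 0.12 on the log2 scale, limma adjusted p = 0.358, DESeq2 adjusted p = 0.0388). Its range over the alternatives was 0.39 to 0.52. Fbln1 was at 2102, 1933 and 1593 in Itgb5-/-, against 2600, 2184 and 5209 in WT129, without overlap and with WT129 replicate 3 far above the rest. Its log2 fold change of −0.73 ± 0.31 (limma adjusted p = 0.598) was −0.35 without that library. Htra1 was at 2066, 2258 and 1889, against 2319, 3601 and 2683 in WT129 (log2 fold change −0.45 ± 0.17, adjusted p = 0.566), and −0.27 without WT129 replicate 2. Timp3 was above all WT129 libraries, at 121886 to 125508 against 97706 to 116153, at 0.21 on the log2 scale (limma adjusted p = 0.747).

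Among collagens, Col4a2 was at 3340, 3440 and 2153 in Itgb5-/- and at 2370, 22490 and 3492 in WT129, so that WT129 replicate 2 sets its log2 fold change of −0.97 ± 0.75 (limma adjusted p = 0.759). Without that library it was 0.02 (adjusted p = 0.997). Col4a5 had −0.67 ± 0.30 (adjusted p = 0.617), and −0.38 without it. Col8a1 was at 35841 to 36933 in Itgb5-/-, against 28577 to 32276 in WT129, without overlap (log2 fold change 0.27, adjusted p = 0.623). Col1a2 had 0.47, Col3a1 0.44, Col6a2 0.43 and Lama4 0.41, and in all 4 Itgb5-/- replicate 1 was the highest library. Without it Col1a2 had 0.12, Col3a1 0.08, Col6a2 0.21 and Lama4 0.11, and without WT129 replicate 1 they had 0.22, 0.15, 0.07 and 0.15. Fn1 was at 8606, 5865 and 4122, against 1943, 4802 and 5570 (log2 fold change 0.67 ± 0.42, adjusted p = 0.709), and had 0.20 without WT129 replicate 1 and 0.40 without Itgb5-/- replicate 1. Lamb1 had −0.26, Sparc −0.30 and Mmp14 −0.18. Summed striated muscle markers were 26104, 11682 and 7293 in Itgb5-/-, against 3534 to 6583 in WT129, highest in Itgb5-/- replicate 1. That library was also highest for summed endothelial markers, at 20800, against 11021 to 14326 in the rest of its table. Melanocyte and Schwann cell markers summed to 390114 there, against 129780 to 269954 in the rest. Fibroblast and mural cell markers were highest in WT129 replicate 2, at 11762, against 10629 in Itgb5-/- replicate 1. Summed rod markers were 62702 to 126350 in Itgb5-/- and 188536 to 446764 in WT129. The part of these tissues in the values was not tested.

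Marked and unmarked C57BL/6 libraries, of the same genotype and age, were also compared. No gene of the 46 passed with limma (0.167% of all genes) or edgeR (0.203%), and DESeq2 called Col8a2 higher in marked libraries (2.17%, against 1.35% of all genes). An unadjusted limma p under 0.05 was reached by 5 of 46 (10.9%), fewer than the 24.0% of all genes. There was 1 higher (2.17%, against 9.98%) and 4 lower (8.7%, against 14.0%). Marked libraries lay wholly above unmarked ones for 7 genes (15.2%, against 17.9%) and wholly below for 9 (19.6%, against 17.3%). Of 46 log2 fold changes, marked over unmarked, 13 were positive, against 50.6% of all genes. Col8a2 was at 49022, 67342 and 57306 in marked and at 40926, 30845 and 35135 in unmarked libraries, without overlap (log2 fold change 0.70 ± 0.20, limma adjusted p = 0.153). Col15a1 was at 157, 254 and 192 in marked and at 292, 351 and 275 in unmarked libraries, the reverse order (−0.62 ± 0.28, adjusted p = 0.205). Fbln1 had −0.49 (adjusted p = 0.169), Col4a5 −0.45 (adjusted p = 0.17), Htra1 −0.30 (adjusted p = 0.17), Col6a1 −0.56, Lox −0.52, Lama2 −0.49, Col3a1 0.48, Bgn, biglycan, −0.37, Col5a1 −0.30, Timp2 0.22, Lamc1 −0.19 and Sparc −0.17. Summed rod markers were 35626 to 125910 in marked and 136476 to 350611 in unmarked libraries, and their part in these differences was not tested. The labels do not say what the mark stands for.

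Ratios were also taken between chains that assemble together, between the nearby genes Lum and Dcn, and between chains of different trimers. Over all 18 libraries the ratio of Col4a3 to Col4a4 counts was 0.738 to 0.946, of Col1a1 to Col1a2 counts 0.763 to 1.13, and of Col4a1 to Col4a2 counts 0.999 to 1.58. The ratio of Col8a1 to Col8a2 counts was 0.85 to 1.53. The Lum to Dcn ratio was 0.0766 to 0.153, with WT129 replicate 3 highest. The ratio of Col4a1 to Col4a3, which belong to different trimers, was 0.303 to 4.61, with Mertk-/-V2Tyro3-/-V2 replicate 3 and WT129 replicate 2 at 4.61 and 3.46 and the others at most 0.816. Both genes of a pair share a library and its depth, so these ratios are descriptions.

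Other members also moved library by library. Tyro3-/-V1 replicate 1 was above 2 times the median of the other libraries of its table for Postn, Lum, Dcn and Col3a1, and Itgb5-/- replicate 1 for Col3a1, Col1a1, Col5a1 and Col1a2. In WT129 replicate 1 the genes Fn1, Postn, Nid1, Lox, Col6a1, Col6a2 and Col6a3 were below 0.5 times that median. The median coefficient of variation of the 46 genes was 15.5% in Mertk-/-V2Tyro3-/-V2, 23.2% in Tyro3-/-V1 and 14.1% in C57BL/6, and 24% in Itgb5-/- and 29.3% in WT129. Over all genes tested it was 18.6%, 17.5%, 20.2%, 12.9% and 21.7% in the same order.

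**Figure D5:**
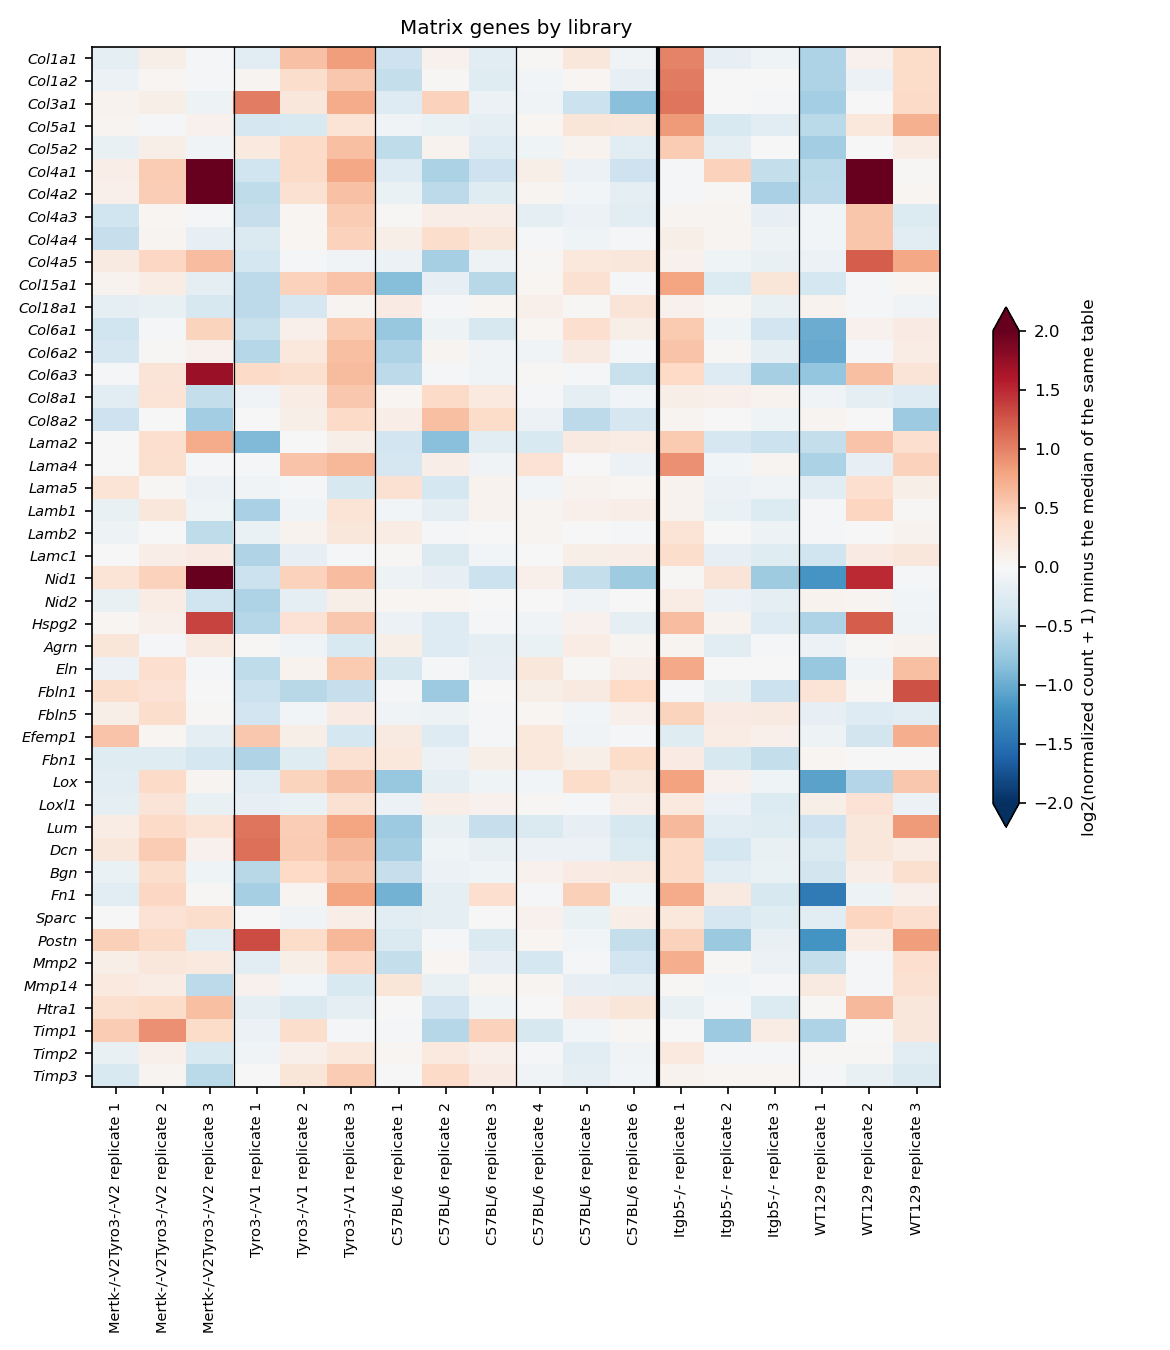
Each cell shows log2 of the normalized count plus 1 of a gene in a library, minus the median over the libraries of the same table, with colours cut at 2 and −2. The thick line separates the tables. Dark red cells for Col4a1, Col4a2 and Nid1 stand in Mertk-/-V2Tyro3-/-V2 replicate 3 and, for Col4a1 and Col4a2, in WT129 replicate 2. In Tyro3-/-V1, Lum, Dcn, Col1a2, Col3a1 and Col5a2 are above the median in every library. Bgn in Tyro3-/-V1 replicate 1 and Col5a1 in replicates 1 and 2 are below it.

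A list of 150 other matrix genes was read in the same fits. In the libraries labelled Mertk-/-V2Tyro3-/-V2, 149 were tested, none passed with limma, and 49 (32.9%) had an unadjusted p under 0.05, against 21.9% of all genes. Their median log2 fold change was 0.27, and DESeq2 called 30 higher and 2 lower, where it called 5.71% of all genes higher and 3.04% lower. Among the 30 were Plod2, a collagen lysyl hydroxylase, at 1.28 on the log2 scale (limma adjusted p = 0.0733), Adamts1, a protease of proteoglycans, with 1.17 (adjusted p = 0.0857), Loxl2, a crosslinking enzyme, with 0.70 (adjusted p = 0.0857), and Tgfb2, a growth factor that induces matrix genes, with 0.76 (adjusted p = 0.0918). Loxl2 was above all C57BL/6 libraries in every mutant library, and Plod2, Adamts1 and Tgfb2 overlapped with C57BL/6. For Plod2 only 1 mutant library was above all controls. With Mertk-/-V2Tyro3-/-V2 replicate 3 left out, DESeq2 called 467 of all genes, against 1725 with it. How many of the 30 stayed called there was not counted. Itga3, an integrin chain that binds laminin, had −0.48 (limma adjusted p = 0.0503, edgeR adjusted p = 0.0336, DESeq2 adjusted p = 6.72e-05). In Tyro3-/-V1 none passed with limma, 17 (11.4%) had an unadjusted p under 0.05, against 6.71% of all genes, and the median was 0.09. In Itgb5-/- none of 148 passed with limma, 18 (12.2%) had an unadjusted p under 0.05, against 8.28% of all genes, and the median was −0.01. DESeq2 called 3 higher in Tyro3-/-V1, where it called 0.467% of all genes higher. In Itgb5-/- it called 2 higher, against 0.434% of all genes, and 5 lower, against 1.87%. Between marked and unmarked C57BL/6, 41 of 149 (27.5%) had an unadjusted limma p under 0.05, against 24.0% of all genes. The median there was −0.17, marked over unmarked, and the fold changes over C57BL/6 rest on the marked libraries. The genes named from this list were chosen after their values were seen.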

How the data were processed

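Polyadenylated RNA from RPE was sequenced in 18 libraries. Per the labels' protocols, RNA was extracted with a column kit and libraries were sequenced as Illumina paired ends. The submitters' processing notes name STAR, DESeq2, GRCm38 and mm10, with no versions, and annotation, counter and strand use are not given in the sources used here. The authors deposited a signal per gene, normalized counts, in 2 tables that were normalized separately. In both tables, values above 0 were whole multiples of 1 step per library within 0.001 read, so whole reads were recovered in 100% of them. In Mertk-/-V2Tyro3-/-V2 replicate 1 and Tyro3-/-V1 replicate 1 the steps correspond to size factors of 0.9981 and 1.0067, a step the unit check could not tell from rounding. Among lines of the first table, 240 named no gene and were dropped (up to 0.0203% of the reads). In the second, 3061 of 3096 unnamed lines were named from their identifier and 35 were kept by identifier, and the unnamed lines held at most 1.15% of a library. Tables were fitted separately on log2(normalized count + 1) by limma 3.58.1 under R 4.3.3, with trend and robust shrinkage, for genes of at least 10 in at least 3 libraries (19711 and 18653). Terms were group and, in the first table, the mark 23, leaving 8 residual degrees of freedom and 4 in the second. Tests were two-sided, with Benjamini-Hochberg adjustment over all genes and a threshold of 0.05. Fold changes on this scale understate those of low genes. The steps were tested on simulated data. edgeR 4.0.16 and DESeq2 1.42.0 ran on the recovered reads as alternatives, beside pseudocounts of 0.5 and 10, no filter, a filter of 50, TMM rescaling, other sample sets and each library left out. Levels divide reads by the union of exons in GENCODE M21. Replicates of a group differed by more than sampling noise (chi-square per gene of 17 to 168).

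The 46 genes, their roles and all lists were chosen with earlier results of these data known. Genes are named by a rule: in each comparison those past the threshold of limma, edgeR or DESeq2 and the 2 of smallest limma p in each of 7 roles, and the 3 highest and 3 lowest levels. Others were named after their values were seen, to complete a family, a count or a library pattern. Several genes overlap another annotated gene, among them Col4a1, Col4a2, Nid1, Nid2, Fbn1, Fn1 and Timp3, and without strand reads shared with the overlapping gene cannot be told apart. p-values measure the spread between the libraries labelled as biological replicates.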

Additional observations from a re-analysis of the deposited data

Results flagged for a closer look

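Dcn in C57BL/6 replicate 1 was at 3686 normalized counts, the lowest of 6 C57BL/6 libraries. The other 5 were at 4835 to 5519, and the gap to the nearest of them was 0.627 of the group's whole range. Chance marks about 1 in 20 groups in this way. Without this library the log2 fold change of Dcn was 0.87 in Tyro3-/-V1 over C57BL/6 (limma adjusted p = 0.631), against 1.05 with it (adjusted p = 0.191), and 0.39 in Mertk-/-V2Tyro3-/-V2 over C57BL/6.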

How the results depend on the processing

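Of the settings tried, DESeq2 on the recovered reads changed the counts most. It called 8 of the 46 genes in Mertk-/-V2Tyro3-/-V2 over C57BL/6, 3 in Tyro3-/-V1 over C57BL/6, 2 in Mertk-/-V2Tyro3-/-V2 over Tyro3-/-V1, 1 between marked and unmarked C57BL/6, and 1 in Itgb5-/- over WT129, where limma called 0, 1, 0, 0 and 0. Chosen after seeing the data, DESeq2 without Mertk-/-V2Tyro3-/-V2 replicate 3 called 1 over C57BL/6 and 2 over Tyro3-/-V1, and DESeq2 without WT129 replicate 2 called 1, Fbln1, which was lower in Itgb5-/- (log2 fold change −1.08). In Mertk-/-V2Tyro3-/-V2 over C57BL/6, a filter of 50 gave 1 call, Htra1. Lum was no longer called in Tyro3-/-V1 with the marked libraries alone (0 calls), with the compared groups alone (0), or without C57BL/6 replicate 1 and Mertk-/-V2Tyro3-/-V2 replicate 3 together (0), and leaving out each library in turn gave 0 to 1. In these fits fewer samples were used. Leaving out each library moved the median log2 fold change of the 46 genes between −0.18 and 0.13 in Mertk-/-V2Tyro3-/-V2 over Tyro3-/-V1. Col4a2 in Itgb5-/- over WT129 ran between −1.6 and 0.02 as each library was left out, and changed sign: −0.97 with all libraries became 0.02 with limma, 0.01 with edgeR and 0.01 with DESeq2 once WT129 replicate 2 was left out. Among the genes named by the rule, for which the settings were run gene by gene, no other direction changed, and the other genes were not followed across settings. The deviations of same-numbered libraries correlated at −0.214 to 0.559 in the first table and −0.116 to 0.034 in the second, so the numbers were not taken as pairs. With the replicate number as a block, 1 gene (Htra1) was called in Mertk-/-V2Tyro3-/-V2 over C57BL/6, where limma then called 716 of all genes. With the block 0 were called in Tyro3-/-V1 over C57BL/6, in Mertk-/-V2Tyro3-/-V2 over Tyro3-/-V1 and in Itgb5-/- over WT129. Over all genes, limma called 103, 9, 27, 33 and 7 in the 5 comparisons in the order above, and DESeq2 1725, 131, 692, 911 and 429. For the first, dropping the mark term gave 53, the marked libraries alone 11, the compared groups alone 29, and leaving out each library 0 to 142. For the third, no filter gave 41, the marked libraries alone 5, the compared groups alone 2. For the fourth, a pseudocount of 10 gave 57, the compared groups alone 0, and leaving out each library 4 to 91. For the last, no filter gave 19 and the block 0. The cause of these changes was not tested. With 3 libraries a group, the 95% intervals of Col4a1, Col4a2 and Nid1 span more than 2 log2 units.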

Other observations

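A few other matrix genes outside the 46 stood out by size alone and were chosen after their values were seen. In Mertk-/-V2Tyro3-/-V2 over C57BL/6, Mmp24 had 1.85 on the log2 scale (limma adjusted p = 0.171), Mmp9, a gelatinase, 1.71 (adjusted p = 0.176) and Adamts3, a procollagen protease, 1.63 (adjusted p = 0.154), but Adamts3 also differed by −1.97 between marked and unmarked C57BL/6 (adjusted p = 0.153). For Mmp24, Mmp9 and Adamts3 the groups overlap, and only 1 mutant library was above all controls. Their SDs were 105, 96.2 and 149 around mutant means of 128, 119 and 194 normalized counts. Ccn3, a matricellular protein, had 1.09 in Tyro3-/-V1 over C57BL/6 (adjusted p = 0.374) and −0.96 in Mertk-/-V2Tyro3-/-V2 over Tyro3-/-V1 (adjusted p = 0.213). In Itgb5-/- over WT129, Col9a1, a collagen of the vitreous, had −1.71 (adjusted p = 0.432), Mfap4 −1.54 (adjusted p = 0.437) and Itga2, a collagen-binding integrin chain, 1.36 (adjusted p = 0.396). None of these passed with limma or edgeR, and DESeq2 called each of them.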
